A study of Homo sapiens with 9 samples.

Results

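The genes described here encode the transporters, enzymes and regulators that carry glucose carbon through glycolysis, the pentose phosphate pathway and the citrate cycle. The list has 49 genes, chosen by pathway, and a gene was measured where the platform gave its symbol to a row with 1 gene symbol. This held for 48 of the 49 genes, among 17687 genes measured in all. The fumarase gene FH is the 1 listed gene without such a row and was not analysed here.

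The cells were AsPC-1, an established human line of pancreatic adenocarcinoma, and the question of the study is what SLP-2, the mitochondrial inner membrane protein encoded by STOML2, does in pancreatic cancer. All 3 groups were transfected with a pBAsi-hU6 NEO plasmid and selected with Geneticin for 3 weeks. The sh2 cells carried shRNA-2 of SLP-2, the sh1 cells carried shRNA-1 of SLP-2 and the control cells carried the blank plasmid, with 3 arrays per group. Each group grew from 1 picked colony, so it is 1 clone, and a difference between groups cannot be told apart from a difference between clones. The labels do not state whether the 3 arrays of each clone hold RNA of separate cultures, so p-values measure only the spread between these arrays, which may be technical.

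Glycolysis splits glucose to pyruvate in the cytosol, and lactate dehydrogenase can turn that pyruvate into lactate. Pyruvate that enters mitochondria is made into acetyl-CoA by the pyruvate dehydrogenase complex, which feeds the citrate cycle, and pyruvate dehydrogenase kinases switch that complex off. The pentose phosphate pathway branches from glucose 6-phosphate, supplies NADPH and ribose 5-phosphate, and returns sugar phosphates to glycolysis through transketolase and transaldolase. Pancreatic cancer cells are known for high glucose use and lactate release.

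Signals are on a log2 scale, so a difference of 1 is a 2-fold change, and a signal under 4.21 (the lower quartile of all row means) is treated here as close to background. STOML2, the targeted gene, had a signal of 7.73 ± 0.34 in sh2, 8.32 ± 0.12 in sh1 and 13.67 ± 0.03 in control cells (SD, n = 3 each), in the direction of the labels. Array medians lay between 6.57 and 6.65, and arrays correlated across rows at 0.994 to 0.996 within a group and at 0.982 to 0.988 between groups. Of 8 epithelial markers, all had signals above the lower quartile in every group, and the log2 of their summed signal was 17.57 to 17.70 in sh2, 17.58 to 17.71 in sh1 and 17.25 to 17.36 in control cells. Among them 4 rose and 2 fell in sh2, and 5 rose and 1 fell in sh1, against control cells, and the mean of their log2 signals was 11.56 to 11.60 in sh2, 12.79 to 12.95 in sh1 and 10.78 to 10.82 in control cells. ESRP1 averaged 8.47 in sh2, 13.89 in sh1 and 4.55 in control cells, EPCAM averaged 9.68 in sh2, 13.88 in sh1 and 8.94 in control cells, and CDH1 averaged 8.19 in sh2, 10.74 in sh1 and 8.71 in control cells. KRT19 fell in both lines, averaging 15.62 in sh2, 14.50 in sh1 and 16.19 in control cells. Of 11 markers of leukocytes, endothelium and stroma, 4 lay under the lower quartile in sh2 (PTPRC, LYZ, PECAM1 and LUM), 5 in sh1 (those and DCN) and 3 in control cells (LYZ, PECAM1 and LUM). The log2 of their summed signal was 16.42 to 16.65 in sh2, 15.71 to 15.89 in sh1 and 16.52 to 16.58 in control cells, 0 rose and 2 fell in sh2, and 0 rose and 4 fell in sh1. Those that fell were PTPRC and COL1A1 in each line, and CD68 and VIM in sh1 alone. COL1A1 averaged 6.36 in sh2, 6.65 in sh1 and 9.84 in control cells, and VIM averaged 16.40, 15.68 and 16.45. The part of these marker shifts in the results below was not tested.

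Against control cells, 12 of the 48 measured genes passed the test in sh2 (limma, adjusted p under 0.05, a gene that passed being called), 7 higher and 5 lower, which is 25.0%, while 16.3% of all 21448 rows passed, 8.33% higher and 7.98% lower. In sh1, 14 of 48 passed, 6 higher and 8 lower, which is 29.2%, against 18.8% of all rows, 9.76% higher and 9.0% lower. Between the lines (sh2 minus sh1), 9 of 48 passed, 6 higher and 3 lower in sh2, which is 18.8%, against 11.3% of all rows, 5.73% higher and 5.57% lower. The median difference over the 48 genes was -0.0050 in sh2 and -0.02 in sh1, beside 0.02 over all rows in each, and it was 0.13 for sh2 minus sh1, beside -0.01 over all rows. No member apart from ENO2 had a mean under the lower quartile, and with rows under it left out the shares of all rows were higher. Then 13 of 47 members passed in sh2 (27.7%, against 23.8% of rows), 15 of 47 in sh1 (31.9%, against 26.9%) and 9 of 47 for sh2 minus sh1 (19.1%, against 16.6%). The arrays of a line did not overlap those of control cells for 22 members in sh2 (45.8%, against 32.5% of all rows) and for 27 in sh1 (56.3%, against 34.5%), and the arrays of the lines did not overlap each other for 19 members (39.6%, against 27.1%). These shares of all rows include the rows under the lower quartile, and shares without them were not taken. All comparisons share arrays, so the values of each stand side by side below.

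**Figure D1:**
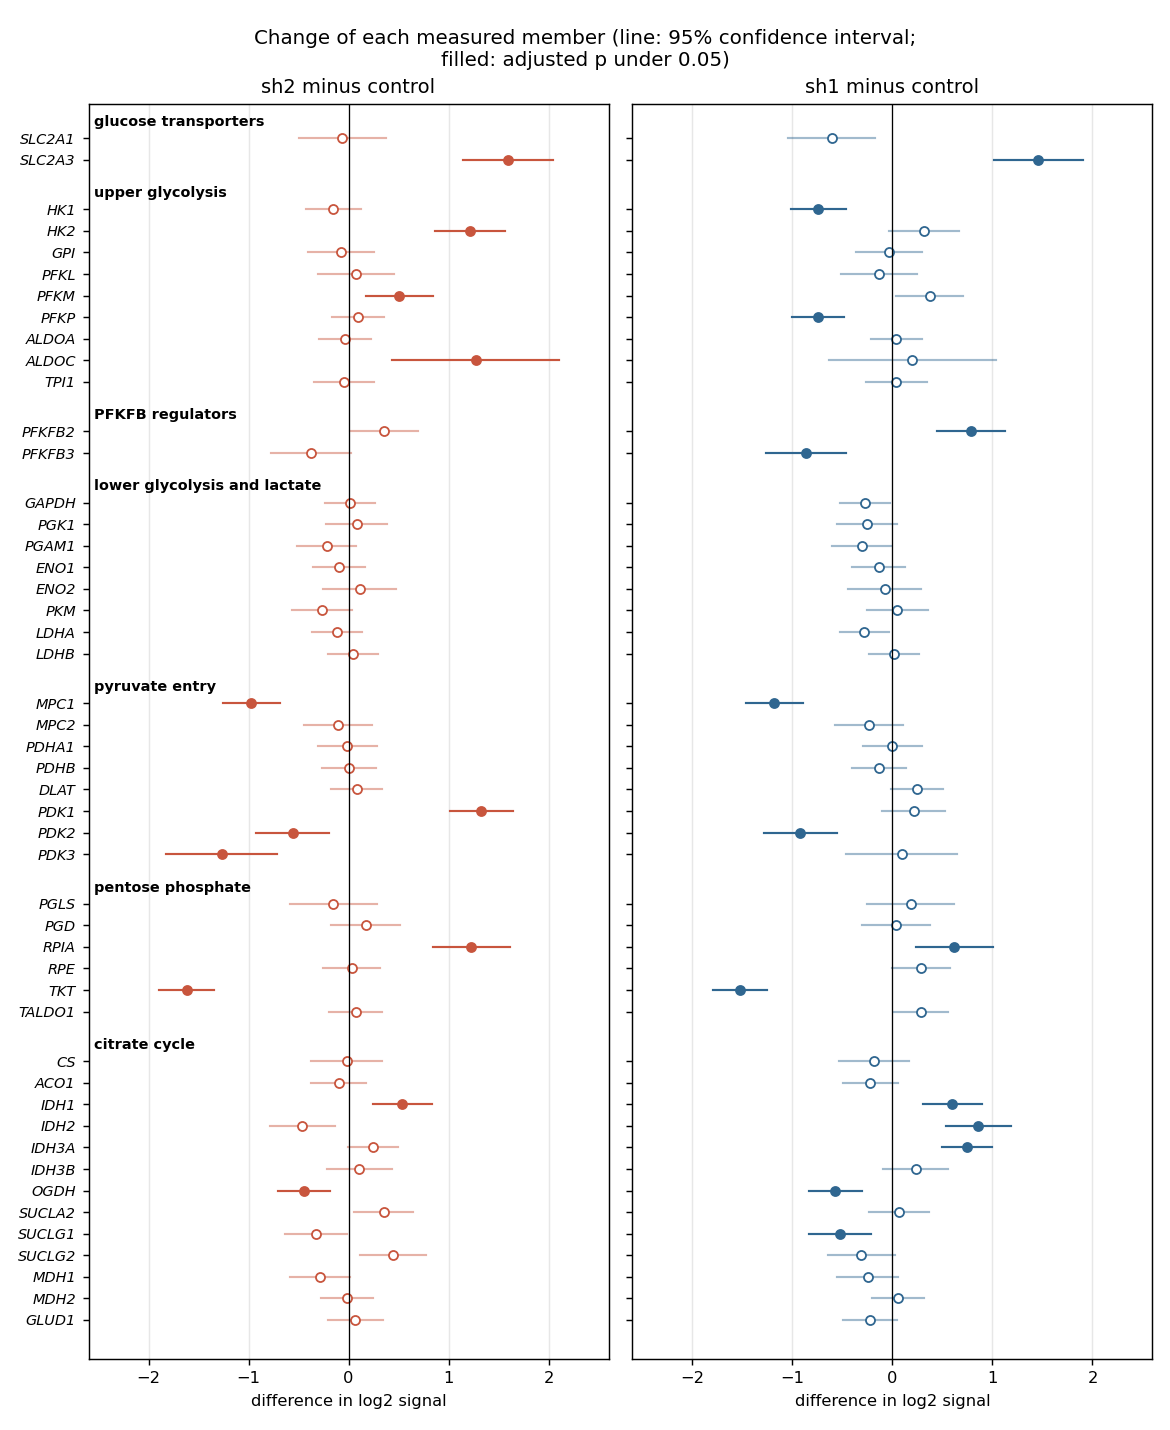
Difference in log2 signal against control cells for each of the 48 measured genes, with sh2 on the left, sh1 on the right, the 95% confidence interval as a line and a filled point where the adjusted p is under 0.05. TKT has the lowest value in each panel (-1.62 and -1.53), SLC2A3 the highest (1.60 and 1.46), and no gene of lower glycolysis has a filled point.

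The promoters of 3 genes are shown as examples and do not stand for all members with the same pattern. TKT and MPC1 fell in both lines by more than any other member called in both, and HK2, a known target of hypoxia-inducible factor, was higher in sh2. Each is the 250 bases before the first listed RefSeq start (GRCh38.p14, read 5′ to 3′ on the gene's strand). They lie at chr3:53256023-53256272 on the minus strand for TKT, chr6:166382941-166383190 on the minus strand for MPC1 and chr2:74833877-74834126 on the plus strand for HK2. Capitals mark ACGTG or GCGTG on either strand (CACGT or CACGC on the strand printed), letters found in binding sites of hypoxia-inducible factor.
TKT: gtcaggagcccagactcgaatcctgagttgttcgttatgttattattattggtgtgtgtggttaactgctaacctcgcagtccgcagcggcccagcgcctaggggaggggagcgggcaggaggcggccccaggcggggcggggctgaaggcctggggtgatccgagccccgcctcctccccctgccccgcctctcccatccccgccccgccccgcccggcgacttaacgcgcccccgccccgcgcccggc
MPC1: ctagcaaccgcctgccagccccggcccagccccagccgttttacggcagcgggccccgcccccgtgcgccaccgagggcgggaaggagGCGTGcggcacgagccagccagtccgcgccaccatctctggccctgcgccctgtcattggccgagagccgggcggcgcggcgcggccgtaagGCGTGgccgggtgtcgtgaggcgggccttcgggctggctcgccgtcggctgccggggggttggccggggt
HK2: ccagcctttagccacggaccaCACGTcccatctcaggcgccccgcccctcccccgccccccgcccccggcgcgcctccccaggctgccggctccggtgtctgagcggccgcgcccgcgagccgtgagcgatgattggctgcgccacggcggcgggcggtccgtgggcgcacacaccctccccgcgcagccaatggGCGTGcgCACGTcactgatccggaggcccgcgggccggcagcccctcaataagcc
The window of TKT holds 0 matches, that of MPC1 holds 2 and that of HK2 holds 3. PDK1 also rose in sh2 alone, by 1.33 against 1.22 for HK2, and its first listed window holds 0 matches. A further listed window holds 6 matches for HK2 and 2 for PDK1. Among the listed genes with a window, 25 of 45 held at least 1 match (55.6%), beside 43.1% of 27305 RefSeq genes and 50.6% of 14250 genes measured on the arrays. A match is a description of these letters and no evidence of binding.

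Among the glucose transporters, SLC2A3 (GLUT3, a high-affinity carrier) rose in both lines and SLC2A1 (GLUT1, the widely expressed carrier) passed in neither. SLC2A3 had signals of 6.63, 6.79 and 5.98 in sh2, 6.33, 6.51 and 6.15 in sh1 and 5.10, 4.73 and 4.78 in control cells. Every array of the lines lay above every control array, and the lines overlapped each other. The change was 1.60 ± 0.20 (SE) in sh2, 3.02-fold (adjusted p = 0.000252), and 1.46 ± 0.20 in sh1, 2.75-fold (adjusted p = 0.000396). The control mean of 4.87 lies near the lower quartile of the row means, so background may limit the size of these rises. SLC2A14, a near-identical copy named after its values were seen, differed from control cells by 1.18 in sh2 (adjusted p = 0.0015) and by 0.60 in sh1 (adjusted p = 0.0552), and how far the probes tell these genes apart was not tested. SLC2A1 had signals of 11.12, 10.64 and 10.45 in sh2, 10.32, 9.99 and 10.27 in sh1 and 10.88, 10.48 and 11.04 in control cells. Its sh1 arrays lay below the control arrays, by -0.61 (95% interval -1.04 to -0.17, adjusted p = 0.0546), while sh2 differed by -0.06 (adjusted p = 0.887). The sh1 difference passed without control array 2, sh2 array 1 or sh2 array 3 (-0.77 to -0.61, adjusted p = 0.0291 to 0.0473) and when fitted with only sh1 and control arrays (-0.61). It also passed with quantile normalization (adjusted p = 0.0354), a prior that follows the signal level (0.0184) and a replicate block (0.0384). The same held with rows under the lower quartile left out (0.0425) and relative to its neighbours (0.0233). It did not pass with array medians centred (0.0592) or without any other array.

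The upper steps of glycolysis trap glucose and split it, and 3 of 9 genes rose in sh2 with 0 lower, while 0 rose and 2 fell in sh1. Of all rows, 16.3% passed in sh2 and 18.8% in sh1. Whether any of the pathways described here differs from these shares was not tested. HK2, the inducible hexokinase on the outer mitochondrial membrane, had signals of 6.84, 6.69 and 6.64 in sh2, 5.75, 5.62 and 6.09 in sh1 and 5.29, 5.71 and 5.52 in control cells. All sh2 arrays lay above the others, and sh1 overlapped control cells. HK2 rose by 1.22 ± 0.16 in sh2, 2.32-fold (adjusted p = 0.00028), and differed by 0.31 in sh1 (adjusted p = 0.217). The lines themselves differed by 0.90 (sh2 minus sh1, adjusted p = 0.00307).

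HK1, the constitutive hexokinase, fell in sh1. Its signals were 10.18, 10.24 and 10.24 in sh2, 9.79, 9.57 and 9.54 in sh1 and 10.26, 10.37 and 10.49 in control cells, and the 3 groups did not overlap. The change was -0.74 ± 0.12 in sh1 (adjusted p = 0.00143) and the difference -0.15 in sh2 (adjusted p = 0.487), and sh2 minus sh1 was 0.59 (adjusted p = 0.00976).

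Of the phosphofructokinases, which commit glucose to glycolysis, PFKP fell in sh1, PFKM rose in sh2 and PFKL passed in neither. PFKP had signals of 15.26, 15.11 and 15.10 in sh2, 14.30, 14.28 and 14.37 in sh1 and 15.01, 14.99 and 15.18 in control cells. The sh1 arrays lay below all others, and sh2 overlapped control cells. PFKP fell by 0.74 in sh1 (adjusted p = 0.00101) and sh2 minus sh1 was 0.84 (adjusted p = 0.00069), and its 40 nearest expressed genes on chromosome 10 had medians of -1.02 and 1.10 in the same comparisons. Relative to those neighbours PFKP differed by 0.28 in sh1 (adjusted p = 0.133) and by -0.26 for sh2 minus sh1 (adjusted p = 0.203). PFKM rose by 0.51 in sh2 (adjusted p = 0.0438) and differed by 0.37 in sh1 (adjusted p = 0.124). That call was lost without any of control arrays 1, 2 and 3, sh1 array 2 or sh2 arrays 1 and 2 (0.43 to 0.56, adjusted p = 0.0538 to 0.151). It was also lost relative to its neighbours, whose median in sh2 was 0.30 (0.21, adjusted p = 0.417).

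ALDOC, the aldolase isoform first known from brain, had the largest standard error of the 48 measured genes. Its signals were 9.15, 9.59 and 8.85 in sh2, 8.31, 8.60 and 7.47 in sh1 and 7.91, 7.13 and 8.74 in control cells. The sh2 arrays lay above the others, the highest control array by a small margin, and sh1 overlapped control cells. ALDOC rose by 1.27 ± 0.38 in sh2 (adjusted p = 0.0418) and differed by 0.20 in sh1 (adjusted p = 0.793). The sh2 call was lost without any of control arrays 1 and 2, sh1 array 1 or the 3 sh2 arrays (0.87 to 1.44, adjusted p = 0.0538 to 0.148). ALDOA, the main aldolase, differed by -0.04 in sh2 and 0.04 in sh1, TPI1, the triose isomerase, by -0.04 and 0.04, and GPI, the glucose 6-phosphate isomerase, by -0.07 and -0.03. PFKL differed by 0.07 in sh2 and -0.13 in sh1.

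The bifunctional PFKFB enzymes set fructose 2,6-bisphosphate, which activates phosphofructokinase, and both listed genes, PFKFB2 and PFKFB3, passed in sh1, in opposite directions, and neither passed in sh2. PFKFB2 had signals of 7.93, 7.73 and 7.48 in sh2, 8.22, 8.29 and 7.95 in sh1 and 7.38, 7.21 and 7.50 in control cells. The sh1 arrays were the highest, and sh2 overlapped control cells. PFKFB2 rose by 0.79 ± 0.15 in sh1 (adjusted p = 0.00375) and differed by 0.35 in sh2 (adjusted p = 0.166).

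PFKFB3, the isoform with the highest ratio of kinase to phosphatase activity, had signals of 4.95, 4.81 and 4.72 in sh2, 4.73, 4.10 and 4.18 in sh1 and 5.19, 4.98 and 5.43 in control cells. The sh1 mean of 4.34 lies close to the lower quartile of the row means, and every array of either line lay below the control arrays. PFKFB3 fell by 0.86 in sh1 (adjusted p = 0.00588) and differed by -0.37 in sh2 (adjusted p = 0.212). Its chromosome 10 neighbours had a median of -1.02 in sh1, and relative to them PFKFB3 differed by 0.16 (adjusted p = 0.539).

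**Figure D2:**
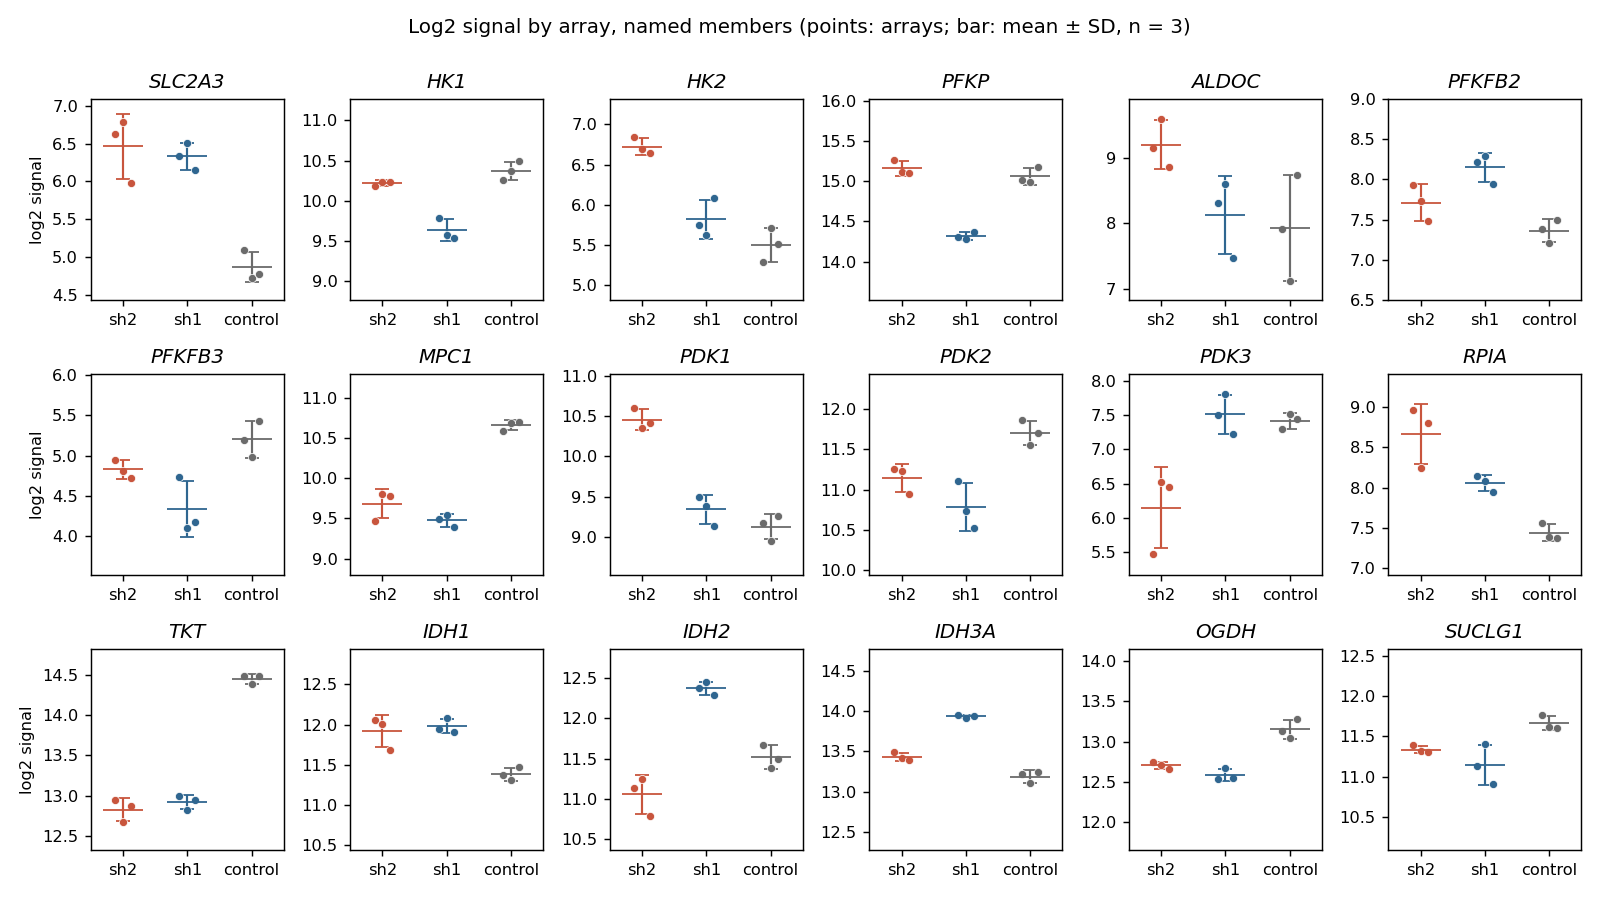
Log2 signal of 18 members in each array (points) with the mean and SD over 3 arrays, for sh2, sh1 and control cells, each panel with its own axis. TKT and MPC1 lie lower and SLC2A3 higher in both lines than in control cells, HK2 and PDK1 are high in sh2, PDK3 is low in sh2, and IDH2 and IDH3A are highest in sh1.

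Lower glycolysis and lactate formation, from GAPDH (glyceraldehyde 3-phosphate dehydrogenase) to the lactate dehydrogenases LDHA and LDHB, had 0 of 8 genes past the test in sh2, sh1 or between the lines. The shares of all rows were 16.3%, 18.8% and 11.3%. Differences ranged from -0.27 to 0.11 in sh2 (median -0.04) and from -0.31 to 0.05 in sh1 (median -0.20). GAPDH differed by 0.01 in sh2 (adjusted p = 0.971) and by -0.27 in sh1 (95% interval -0.52 to -0.02, adjusted p = 0.129). LDHA, which reduces pyruvate to lactate, differed by -0.11 in sh2 and by -0.28 in sh1 (95% interval -0.53 to -0.03, adjusted p = 0.116), and LDHB by 0.04 and 0.02. These intervals exclude a 2-fold change in either direction. PGK1, the phosphoglycerate kinase, differed by 0.08 in sh2 and -0.25 in sh1, PGAM1, the mutase, by -0.22 and -0.31, and ENO1, the enolase, by -0.10 and -0.14. ENO2, the neuronal enolase, lay under the lower quartile in all groups, with means of 3.88 in sh2, 3.69 in sh1 and 3.77 in control cells.

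PKM, the pyruvate kinase, differed by -0.27 in sh2 (adjusted p = 0.243) and by 0.05 in sh1 (adjusted p = 0.863). Its neighbours on chromosome 15 had a median of 0.77 in sh1. Relative to them PKM was lower by -0.72 in sh1 (adjusted p = 0.00317) and by -0.57 in sh2 (adjusted p = 0.0147). With a prior that follows the signal level, GAPDH, PGAM1 and LDHA also passed as lower in sh1.

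Pyruvate entry into mitochondria held several of the larger changes, with 1 of 8 genes higher and 3 lower in sh2 and 0 higher and 2 lower in sh1. Of all rows, 16.3% passed in sh2 and 18.8% in sh1, or 23.8% and 26.9% with rows under the lower quartile left out. MPC1, a subunit of the mitochondrial pyruvate carrier in the inner membrane, fell in both lines. Its signals were 9.47, 9.80 and 9.78 in sh2, 9.49, 9.54 and 9.39 in sh1 and 10.59, 10.68 and 10.70 in control cells. Every array of the lines lay below every control array, and the lines overlapped. MPC1 changed by -0.97 ± 0.13 in sh2, 0.509 of the control signal (adjusted p = 0.000329), and by -1.18 ± 0.13 in sh1, 0.440 of the control signal (adjusted p = 6.15e-05). MPC2, the partner subunit, differed by -0.11 in sh2 (adjusted p = 0.726) and by -0.23 in sh1 (adjusted p = 0.361).

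The 3 pyruvate dehydrogenase kinases on the list, which inhibit the complex by phosphorylation, moved differently from one another. PDK1 had signals of 10.60, 10.35 and 10.41 in sh2, 9.50, 9.38 and 9.14 in sh1 and 9.17, 8.95 and 9.26 in control cells. The sh2 arrays lay above all others, and sh1 overlapped control cells. PDK1 rose by 1.33 ± 0.14 in sh2, 2.51-fold (adjusted p = 7.42e-05), and differed by 0.21 in sh1 (adjusted p = 0.371). The lines differed by 1.11 (sh2 minus sh1, adjusted p = 0.000347).

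PDK3 went the other way in sh2. Its signals were 5.47, 6.53 and 6.45 in sh2, 7.50, 7.80 and 7.23 in sh1 and 7.29, 7.52 and 7.44 in control cells, with every sh2 array below the others and sh1 spread around control cells. PDK3 fell by 1.27 on the log2 scale in sh2 (adjusted p = 0.00503) and differed by 0.09 in sh1 (adjusted p = 0.86), and sh2 minus sh1 was -1.36 (adjusted p = 0.00441).

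PDK2 fell in both lines. Its signals were 11.26, 11.23 and 10.95 in sh2, 11.11, 10.73 and 10.52 in sh1 and 11.86, 11.56 and 11.70 in control cells, with both lines below all control arrays and overlapping each other. The change was -0.56 in sh2 (adjusted p = 0.0421) and -0.92 in sh1 (adjusted p = 0.00243). Its neighbours on chromosome 17 had medians of -0.43 in sh2 and -0.49 in sh1, and relative to them PDK2 differed by -0.13 (adjusted p = 0.667) and -0.43 (adjusted p = 0.101). The sh2 call was lost without any of the 3 control arrays, sh1 array 2 or the 3 sh2 arrays (-0.63 to -0.46, adjusted p = 0.0523 to 0.148).

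PDK4, a kinase of the same family outside the 49 genes, was chosen after its values were seen. Its signals were 6.34, 6.71 and 6.42 in sh2, 6.24, 6.21 and 6.04 in sh1 and 5.87, 5.80 and 5.18 in control cells, with every array of the lines above the control arrays. PDK4 rose by 0.87 in sh2 (adjusted p = 0.00739) and differed by 0.55 in sh1 (adjusted p = 0.064). The sh1 difference passed without control array 1 (0.67, adjusted p = 0.0489) and relative to its neighbours (0.84, adjusted p = 0.0102).

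None of the 3 listed subunit genes of the complex that the kinases act on passed in either line. PDHA1 and PDHB, subunits of its first enzyme, differed by -0.01 and 0.0033 in sh2 and by 0 and -0.13 in sh1. DLAT, the second enzyme, differed by 0.08 in sh2 and 0.25 in sh1 (adjusted p = 0.185).

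The pentose phosphate pathway held the lowest value of the list in each comparison with control cells, with 1 of 6 genes higher and 1 lower in each line. The shares of all rows that passed were 16.3% in sh2 and 18.8% in sh1. TKT encodes transketolase, which moves carbon pairs between sugar phosphates. It had signals of 12.94, 12.67 and 12.87 in sh2, 13.00, 12.82 and 12.94 in sh1 and 14.48, 14.38 and 14.48 in control cells. All arrays of the lines lay below all control arrays, and the lines overlapped. TKT changed by -1.62 ± 0.12 in sh2, 0.325 of the control signal (adjusted p = 4.43e-06), and by -1.53 ± 0.12 in sh1, 0.347 of the control signal (adjusted p = 6.51e-06). Between the lines the difference was -0.09 (95% interval -0.37 to 0.18). The neighbours of TKT on chromosome 3 had medians of 0.04 in sh2 and -0.04 in sh1, and leaving out any array kept both calls.

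RPIA, which interconverts ribulose 5-phosphate and ribose 5-phosphate, rose in both lines. Its signals were 8.96, 8.24 and 8.80 in sh2, 8.15, 8.08 and 7.95 in sh1 and 7.56, 7.39 and 7.37 in control cells, and the 3 groups did not overlap. The change was 1.23 ± 0.18 in sh2, 2.34-fold (adjusted p = 0.000564), and 0.62 in sh1 (adjusted p = 0.0293), and sh2 minus sh1 was 0.61 (adjusted p = 0.0475). The sh1 call was lost without any of control arrays 2 and 3 or sh1 arrays 1 and 2 (0.58 to 0.61, adjusted p = 0.0744 to 0.0905). The call between the lines was lost without any 1 array other than sh2 array 2 (0.46 to 0.65, adjusted p = 0.0628 to 0.149). It was also lost with array medians centred, with quantile normalization and when fitted with only sh2 and sh1 arrays.

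The other pentose phosphate genes passed in neither line. PGD, the NADPH-forming dehydrogenase of the oxidative branch, differed by 0.17 in sh2 and 0.04 in sh1, and PGLS, the lactonase before it, by -0.15 and 0.18. RPE, the epimerase, differed by 0.03 in sh2 and 0.29 in sh1 (adjusted p = 0.17). TALDO1, transaldolase, differed by 0.07 in sh2 and 0.29 in sh1 (adjusted p = 0.14).

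Of the 13 citrate cycle genes of the list that were measured, 1 rose and 1 fell in sh2, and 3 rose and 2 fell in sh1. Beside them, 16.3% of all rows passed in sh2 and 18.8% in sh1. IDH1, the cytosolic NADP-dependent isocitrate dehydrogenase, had signals of 12.06, 12.01 and 11.69 in sh2, 11.95, 12.08 and 11.91 in sh1 and 11.37, 11.31 and 11.47 in control cells. Both lines lay above control cells and overlapped each other. IDH1 rose by 0.54 in sh2 (adjusted p = 0.0179) and by 0.60 in sh1 (adjusted p = 0.00877). The sh2 call was lost without any of control arrays 1 and 2 or sh2 arrays 1 and 2 (0.47 to 0.53, adjusted p = 0.0591 to 0.0669).

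IDH2, the mitochondrial NADP-dependent isocitrate dehydrogenase, separated the lines. It had signals of 11.14, 11.24 and 10.78 in sh2, 12.38, 12.45 and 12.29 in sh1 and 11.67, 11.38 and 11.50 in control cells. The sh1 arrays were the highest and the sh2 arrays the lowest, with control cells between them and no overlap. IDH2 rose by 0.86 in sh1 (adjusted p = 0.00166) and differed by -0.46 in sh2 (adjusted p = 0.0546), and sh2 minus sh1 was -1.32 (adjusted p = 0.000116). Its neighbours on chromosome 15 had a median of 0.83 in sh1, where the difference relative to them was 0.03 (adjusted p = 0.926). Relative to its neighbours IDH2 was lower in sh2 by -0.84 against control cells (adjusted p = 0.00159) and by -0.87 against sh1 (adjusted p = 0.00156). Against control cells the sh2 difference of IDH2 also passed with quantile normalization and with a prior that follows the signal level. It passed too with rows under the lower quartile left out and without sh2 array 2.

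IDH3A, the catalytic subunit of the NAD-dependent isocitrate dehydrogenase, lies on the same chromosome. Its signals were 13.49, 13.42 and 13.39 in sh2, 13.95, 13.91 and 13.94 in sh1 and 13.22, 13.10 and 13.24 in control cells, and the groups did not overlap. IDH3A rose by 0.75 in sh1 (adjusted p = 0.000676) and differed by 0.25 in sh2 (adjusted p = 0.181), and sh2 minus sh1 was -0.50 (adjusted p = 0.0136). Its neighbours had a median of 0.63 in sh1, and relative to them it differed by 0.12 in sh1 (adjusted p = 0.547) and by -0.04 for sh2 minus sh1. IDH3B, another subunit, on chromosome 20, differed by 0.11 in sh2 and 0.23 in sh1 and passed in neither.

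OGDH, the first enzyme of the 2-oxoglutarate dehydrogenase complex, had signals of 12.75, 12.71 and 12.66 in sh2, 12.53, 12.67 and 12.55 in sh1 and 13.13, 13.05 and 13.28 in control cells. Both lines lay below control cells and overlapped each other. OGDH fell by 0.45 in sh2 (adjusted p = 0.0243) and by 0.57 in sh1 (adjusted p = 0.00562). The sh2 call was lost without any of control arrays 1 and 3 or sh2 arrays 2 and 3 (-0.46 to -0.38, adjusted p = 0.0647 to 0.0921) and relative to its neighbours (-0.27, adjusted p = 0.166).

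SUCLG1, the shared alpha subunit of succinyl-CoA ligase, fell in sh1. Its signals were 11.39, 11.32 and 11.30 in sh2, 11.13, 11.40 and 10.91 in sh1 and 11.77, 11.62 and 11.61 in control cells. Both lines lay below control cells, and the sh1 arrays spread across those of sh2. SUCLG1 differed by -0.33 in sh2 (adjusted p = 0.151) and fell by 0.52 in sh1 (adjusted p = 0.0236), a call lost without any of control arrays 1 and 2 or sh1 arrays 1 and 3 (-0.54 to -0.40, adjusted p = 0.0529 to 0.093). SUCLG2, the GTP-forming beta subunit, had signals of 10.15, 10.00 and 9.91 in sh2, 9.47, 8.95 and 9.38 in sh1 and 9.59, 9.52 and 9.62 in control cells. Control cells lay between the lines, with no overlap. SUCLG2 differed by 0.44 in sh2 (adjusted p = 0.0708) and by -0.31 in sh1 (adjusted p = 0.199), and sh2 minus sh1 was 0.75 (adjusted p = 0.00694). Its sh2 difference passed with a prior that follows the signal level, with only sh2 and control arrays, and without sh1 array 2. SUCLA2, the ATP-forming beta subunit, differed by 0.35 in sh2 (adjusted p = 0.114) and 0.07 in sh1.

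The entry and the last steps of the cycle passed in neither line. CS, citrate synthase, differed by -0.02 in sh2 and -0.19 in sh1, and ACO1, the cytosolic aconitase, by -0.10 and -0.22. MDH2, the mitochondrial malate dehydrogenase, differed by -0.01 in sh2 and 0.05 in sh1, and MDH1, its cytosolic partner, by -0.29 and -0.25. GLUD1, which feeds glutamate carbon into the cycle, differed by 0.07 in sh2 and -0.22 in sh1.

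A share of the members lies among neighbours that shifted together, and the median difference of the 40 nearest expressed genes was compared with each member. In sh2 the neighbour medians ranged from -0.43 to 0.40, and 1 of 48 members, PDK2, had neighbours shifted by more than 0.4. In sh1 they ranged from -1.02 to 0.83, and 6 of 48 members did (PFKP and PFKFB3 on chromosome 10, PKM, IDH2 and IDH3A on chromosome 15, and PDK2 on chromosome 17). Of these 6 members, 5 had passed the test in sh1, and all 5 of those calls were lost relative to the neighbours. In sh2 the calls of PFKM, PDK2 and OGDH were lost in that way. For SLC2A3, TKT and MPC1 the calls of both lines were kept relative to the neighbours. Relative to their neighbours, SLC2A1 (-0.66), GAPDH (-0.39), ENO1 (-0.45), CS (-0.48) and MDH1 (-0.45) also passed as lower in sh1, and MDH1 (-0.46) in sh2.

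**Figure D3:**
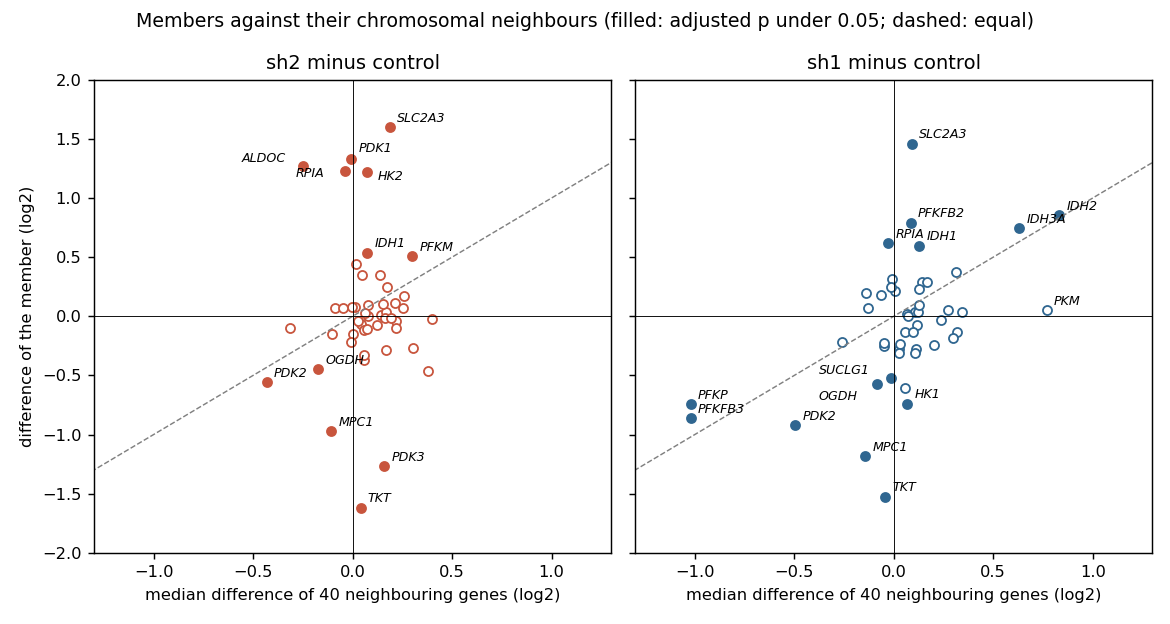
Difference of each of the 48 genes against control cells (vertical axis, log2) against the median difference of its 40 nearest expressed genes (horizontal axis, log2), with sh2 on the left, sh1 on the right and filled points at an adjusted p under 0.05. TKT, MPC1 and SLC2A3 lie far from the dashed line of equal values in each panel, while PFKP, PFKFB3, IDH2 and IDH3A lie close to it in sh1.

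Related genes of the same pathways, from a list of 73 of which 60 were measured, gave 5 higher and 7 lower in sh2 (median 0), 4 higher and 8 lower in sh1 (median -0.07) and 6 in each direction for sh2 minus sh1. Each is 12 of 60, beside 16.3%, 18.8% and 11.3% of all rows in the same comparisons. SLC2A12, a facilitative glucose transporter, had signals of 9.23, 9.82 and 9.38 in sh2, 9.22, 9.51 and 9.20 in sh1 and 11.08, 11.20 and 11.40 in control cells. Both lines lay below control cells, and the change was -1.75 in sh2 (adjusted p = 3.41e-05) and -1.92 in sh1 (adjusted p = 1.34e-05). SLC2A8, an intracellular glucose transporter, had signals of 5.48, 4.76 and 3.98 in sh2, 7.41, 6.42 and 6.95 in sh1 and 8.01, 8.05 and 8.43 in control cells. The 3 groups did not overlap, with changes of -3.42 in sh2 (adjusted p = 3.51e-05) and -1.24 in sh1 (adjusted p = 0.0237), and the sh1 call was lost without any of control arrays 2 and 3 or sh1 arrays 2 and 3 (-1.29 to -0.98, adjusted p = 0.0533 to 0.0965). The sh2 mean of 4.74 lies near the lower quartile of the row means and sh2 array 3 under it, so background may limit the size of the sh2 fall.

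SLC16A7, the monocarboxylate transporter MCT2, had signals of 7.45, 7.71 and 7.71 in sh2, 4.02, 4.17 and 4.36 in sh1 and 3.96, 3.22 and 3.18 in control cells. It was high in sh2 alone, while the means of sh1 and control cells lay under the lower quartile. SLC16A7 rose by 4.17 in sh2 (adjusted p = 8.96e-08), a size limited by a control signal close to background. In sh1 it differed by 0.73 (adjusted p = 0.0252) with both means close to background, so no rise is read from it. That sh1 call was lost without any of control arrays 2 and 3 or sh1 arrays 2 and 3 (0.59 to 0.74, adjusted p = 0.062 to 0.0993) and relative to its neighbours (0.29, adjusted p = 0.35).

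GLUL, glutamine synthetase, had signals of 9.47, 9.59 and 9.54 in sh2, 10.10, 10.08 and 10.01 in sh1 and 11.17, 11.14 and 11.41 in control cells. It fell by 1.71 in sh2 and by 1.18 in sh1, with no overlap between groups. PDP1, the phosphatase that reverses the pyruvate dehydrogenase kinases, had signals of 9.41, 9.70 and 9.58 in sh2, 9.94, 10.19 and 10.20 in sh1 and 10.83, 10.95 and 11.02 in control cells. It fell by 1.37 in sh2 and by 0.82 in sh1 (adjusted p = 0.0011), and its groups did not overlap. ADPGK, the ADP-dependent glucokinase, had signals of 8.30, 8.30 and 8.38 in sh2, 8.76, 8.95 and 9.14 in sh1 and 7.55, 7.59 and 7.63 in control cells. It rose by 0.74 in sh2 (adjusted p = 0.0021) and by 1.36 in sh1, where its neighbours on chromosome 15 had a median of 0.67 and the difference relative to them was 0.69 (adjusted p = 0.00344).

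**Figure D4:**
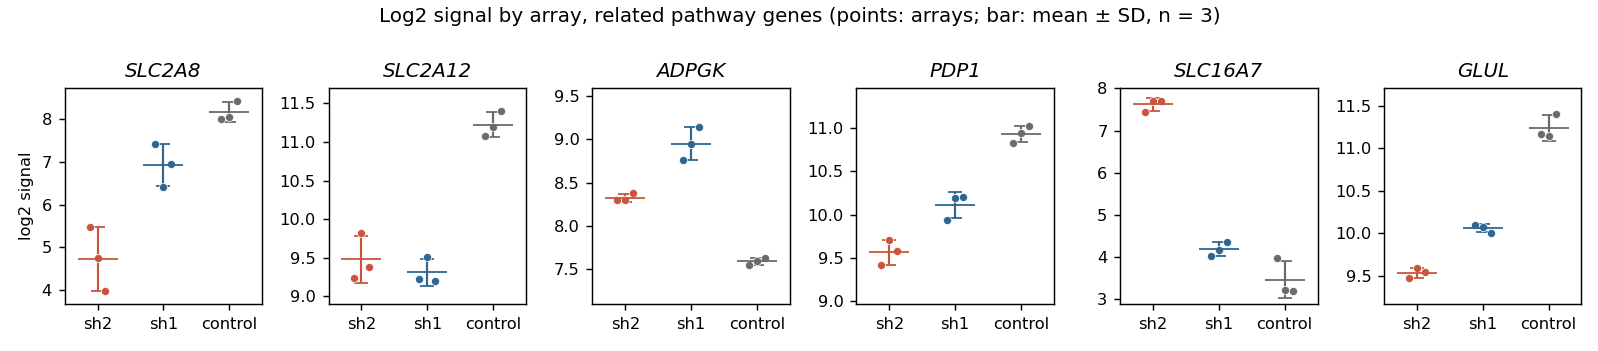
Log2 signal of 6 related genes in each array (points) with the mean and SD over 3 arrays, for sh2, sh1 and control cells, each panel with its own axis. SLC16A7 is at 7.45 to 7.71 in sh2 and at 4.36 or lower in the other arrays, and SLC2A8, SLC2A12, PDP1 and GLUL are lower in both lines than in control cells.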

How the data were processed

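Total RNA of AsPC-1 cells was labelled with biotin from 100 ng by the WT Plus protocol, per the labels' protocols, and hybridised to 9 whole-transcript arrays. The deposited values span 2.03 to 18.57 and were taken as log2 signals. The authors made them with Transcriptome Analysis Console, per the submitters' processing notes. Its version and settings, and any detection calls, are not stated in the labels or headers. Values were used without further scaling. Of 21448 rows, 3739 lacked 1 gene symbol. A gene with several rows was represented by that of highest mean signal.

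Groups were compared with limma 3.58.1 in R 4.3.3, with 1 model over the 9 arrays and Benjamini-Hochberg adjustment over all rows of a comparison, at an adjusted p under 0.05. The fit was tested on simulated data. Errors are SE from the model or SD over 3 arrays, and the number of arrays limits the precision. Array numbers were not used as pairs. Gene order, neighbours and promoters came from RefSeq (GRCh38.p14). A neighbour median covers the 40 nearest genes with a mean signal above the median of all rows, and 0 columns of other samples were in the table.

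Values in every array are given for members called against control cells in both lines, for those called at 2-fold or more between the lines, and for the 8 largest changes among members called in 1 line. SLC2A1 and SUCLG2 fall outside that rule and were chosen after their values were seen. Up to 6 genes each were named from the lists of related genes and regulators by the smaller of their changes. The members and lists were chosen with earlier results of these data known. Alternatives were other scalings, a prior that follows the signal level, only the groups compared, a replicate block, a filter, a neighbour correction, stricter thresholds and leaving out each array.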

Additional observations from a re-analysis of the deposited data

Results flagged for a closer look

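The difference between the lines (sh2 minus sh1) is also the difference of their changes against the shared control cells, and 9 members passed that test (limma, adjusted p under 0.05). HK1 differed by 0.59 (adjusted p = 0.00976), HK2 by 0.90 (adjusted p = 0.00307), PDK1 by 1.11 (adjusted p = 0.000347) and SUCLG2 by 0.75 (adjusted p = 0.00694), each higher in sh2. PDK3 differed by -1.36 (adjusted p = 0.00441) and IDH2 by -1.32 (adjusted p = 0.000116), each lower in sh2. These 6 calls were kept under every alternative of the same threshold and with each array left out. The other 3 members were PFKP at 0.84 (adjusted p = 0.00069), IDH3A at -0.50 (adjusted p = 0.0136) and RPIA at 0.61 (adjusted p = 0.0475), and the calls of PFKP and IDH3A were lost relative to their chromosomal neighbours. RPIA lost its call without any 1 array other than sh2 array 2 (0.46 to 0.65). Its call was also lost with array medians centred, with quantile normalization and when fitted with only sh2 and sh1 arrays.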

How the results depend on the processing

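Over 2301 values of member differences under alternatives, 55 calls were lost and 34 gained with the sign kept, and 80 uncalled differences changed sign. In 5 more the sign turned, with 3 calls lost and 2 gained. Of 35 member calls, 20 were kept under every alternative at the same threshold. Members called were 12 in sh2, 14 in sh1 and 9 for sh2 minus sh1. At an adjusted p under 0.01 the sh2 count was 7, and at 2-fold or more the counts were 7, 3 and 3. A prior that follows the signal level gave 14 for sh2 minus sh1. Rows called were 3498 in sh2, 4025 in sh1 and 2423 between the lines, against 1921, 2425 and 1331 at an adjusted p under 0.01 and 966, 1200 and 755 at 2-fold or more. The stricter thresholds lower these counts by construction. With 1 array left out, members called were 7 to 12 in sh2 (7 without control array 1), 12 to 15 in sh1 and 8 to 9 between the lines, and rows called were 2455 to 3587, 3044 to 4047 and 1803 to 2271. With the neighbour correction, signs turned for PFKP (0.28 in sh1, -0.26 for sh2 minus sh1), PFKFB3 (0.16 and -0.59), PKM (-0.72 in sh1), VEGFA (0.37 in sh2, 0.35 in sh1) and VIM (0.36 in sh1, -0.45 for sh2 minus sh1), by construction where neighbours shifted further than the gene. For other changed calls the cause was not tested. Same-numbered arrays had deviations from their group means that correlated at -0.0358 to 0.180, with 2 of 9 pairs over 0.1. A replicate block gave 10 members in sh2 (PFKM and ALDOC were lost), 15 in sh1 (SLC2A1 was gained) and 9 between the lines, with 3432, 3996 and 2364 rows.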

Other observations

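Regulators of these pathways and known hypoxia targets formed a list of 30 genes, and 28 of them were measured. In sh2, 2 passed as higher than in control cells and 4 as lower. In sh1 these counts were 4 and 5, and for sh2 minus sh1 they were 5 and 4. Of all rows, 16.3%, 18.8% and 11.3% passed in these comparisons. NDRG1, a stress- and hypoxia-induced gene, had signals of 5.94, 5.85 and 5.48 in sh2, 5.50, 5.66 and 5.68 in sh1 and 6.62, 6.14 and 6.46 in control cells. Both lines lay below control cells, and NDRG1 fell by 0.65 in sh2 (limma, adjusted p = 0.0184) and by 0.79 in sh1 (adjusted p = 0.0052). The sh2 call was lost without any of control arrays 1 and 3 or sh2 array 3 (-0.62 to -0.51, adjusted p = 0.0602 to 0.082).

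VEGFA, a secreted growth factor for blood vessels, had signals of 11.95, 11.92 and 11.82 in sh2, 11.83, 11.92 and 11.70 in sh1 and 12.31, 12.35 and 12.29 in control cells. It fell by 0.42 in sh2 (adjusted p = 0.0303) and by 0.50 in sh1 (adjusted p = 0.0109), and its neighbours on chromosome 6 had medians of -0.79 and -0.85. Relative to them it differed by 0.37 in sh2 (adjusted p = 0.0576) and 0.35 in sh1 (adjusted p = 0.0592). The sh2 call was also lost without any of the 3 control arrays or sh2 arrays 2 and 3 (-0.43 to -0.38, adjusted p = 0.0677 to 0.0944). NDRG1 and VEGFA were named because they passed in both lines, and other listed genes, added after their values were seen, differed from them. ADM rose by 1.56 in sh1 (adjusted p = 6.07e-05) and differed by -0.16 in sh2 (adjusted p = 0.613). EGLN3 rose by 0.82 in sh1 (adjusted p = 0.00376) and differed by 0.38 in sh2 (adjusted p = 0.145). BNIP3, P4HA1, KDM3A and ANKRD37 passed in neither line.

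HIF1A and EPAS1, the oxygen-regulated subunits of hypoxia-inducible factor, were chosen after their values were seen. HIF1A averaged 14.80 in sh2, 13.97 in sh1 and 14.46 in control cells, and sh2 minus sh1 was 0.83 (adjusted p = 0.000617). It differed by 0.35 in sh2 (adjusted p = 0.0659) and fell by 0.49 in sh1 (adjusted p = 0.0118). The sh2 difference passed with a prior that follows the signal level (adjusted p = 0.00401) and with rows under the lower quartile left out (adjusted p = 0.0416). EPAS1 averaged 13.98 in sh2, 13.32 in sh1 and 13.37 in control cells, and rose by 0.62 in sh2 (adjusted p = 0.00545). It differed by -0.05 in sh1 (adjusted p = 0.858), and sh2 minus sh1 was 0.66 (adjusted p = 0.0047). Regulators outside these subunits passed too, and those given here were also chosen after their values were seen. In sh1, MYC changed by -1.18 (limma, adjusted p = 0.000696) and NRF1 by 0.72 (adjusted p = 0.0154), and neither passed in sh2. In sh2, MLXIP changed by -1.15 (adjusted p = 0.000682) and ARRDC4 by -0.99 (adjusted p = 0.0174), and neither passed in sh1. For TXNIP only sh2 minus sh1 passed (1.37, adjusted p = 0.0331).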
